A study of Mus musculus with 6 samples.

Results

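The regions described here are 2559 H3K27ac peaks of the mouse cell line ES48 that have no counterpart in the histone peak lists of a second line, ES49. They were chosen by 3 conditions: a place on chromosomes 1 to 19, a width of at least 1000 bp in the ES48 list, and no overlap by 1 bp or more with an H3K27ac or an H3K27me3 peak of ES49. They are called ES48-only peaks below. They make up 2559 of 25970 ES48 H3K27ac peaks in all, and 15.7% of the 16251 autosomal peaks that are at least as wide. Of the other wide autosomal peaks, 13556 overlapped ES49 H3K27ac and are called shared peaks, and 136 overlapped ES49 H3K27me3 without ES49 H3K27ac. Absence from the ES49 lists was part of the choice, so it is a description and not a finding.

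The groups are ES48 H3K27ac and ES48 EWS-FLI1, set against ES49 H3K27ac, ES49 EWS-FLI1 and ES49 H3K27me3, with 1 sample each. ES48 and ES49 are Ewing sarcoma cell lines that were induced in mouse cells by EWS-FLI1, on the Balb/c strain background, and were grown without special treatment. Every sample therefore carries EWS-FLI1, and the fusion protein was precipitated with a FLAG antibody. A sample of ES49 input DNA was not analysed here. Each line is a single line and each list comes from a single library, so a difference between the lines cannot be told apart from a difference between these libraries, and nothing below is tested across replicates. All positions are in mm9. Because no gene annotation or genome sequence of that build was used, regions are named by position.

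H3K27ac is an acetyl group on lysine 27 of histone H3. It is deposited by the acetyltransferases p300 and CBP and is found at promoters and enhancers in use. H3K27me3 sits on the same lysine and is laid down by Polycomb repressive complex 2, so a single histone tail cannot carry both marks. EWS-FLI1 joins the activation domain of EWS to the DNA-binding ETS domain of FLI1, and in human Ewing sarcoma it is known to open enhancers at GGAA repeats and to displace other ETS factors elsewhere.

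The ES48-only peaks were narrow and low-scoring for peaks of their minimum width. Their median width was 1539 bp (quartiles 1219 and 2099), against 2277 bp (1669 and 3112) for the shared peaks. Their median score, the peak caller's own measure of each peak as deposited by the authors, was 444.4 (quartiles 278.0 and 829.8), against 2068 (865.1 and 3100) for the shared peaks. The median over the whole ES48 list was 547.5, and 1030 of the 2559 ES48-only peaks (40.3%) lay above it, against 11528 of 13556 shared peaks (85.0%). The peaks are thus wide but mostly not strong by score, and the working name of strong peaks is not used here. Together they covered 4.64 Mb, against 36.9 Mb for the shared peaks. These values come from the list that the rule used and carry no test.

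The share of ES48-only peaks was smaller in each wider class of peaks. Among peaks of 1000 to 1499 bp it was 33.1% (1222 of 3692, 95% Clopper-Pearson interval 31.6 to 34.6), and among peaks of 1500 to 1999 bp it was 17.2% (16.0 to 18.5). It was 10.1% (9.32 to 11.0) at 2000 to 2999 bp, 6.32% (5.45 to 7.27) at 3000 to 4999 bp and 3.03% (2.09 to 4.23) at 5000 bp or more, where 33 of 1090 peaks were ES48-only. The share was smaller in higher score classes too: below 250 it was 51.5% (503 of 977, 48.3 to 54.7), and at a score of exactly 3100 it was 1.47% (71 of 4843, 1.15 to 1.85). The many peaks tied at 3100 show that the scores level off there, so the 194 wide peaks with values above it, of which 12 were ES48-only (6.19%, 3.24 to 10.6), cannot be ranked over the tied ones. Their median width of 2603 bp lay below the 3376 bp of the tied peaks. The intervals cover counting error within 1 library, and neighbouring peaks are not independent. Whether weaker signal in ES49 below its calling threshold plays a part in the low-scoring peaks was not tested.

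**Figure D1:**
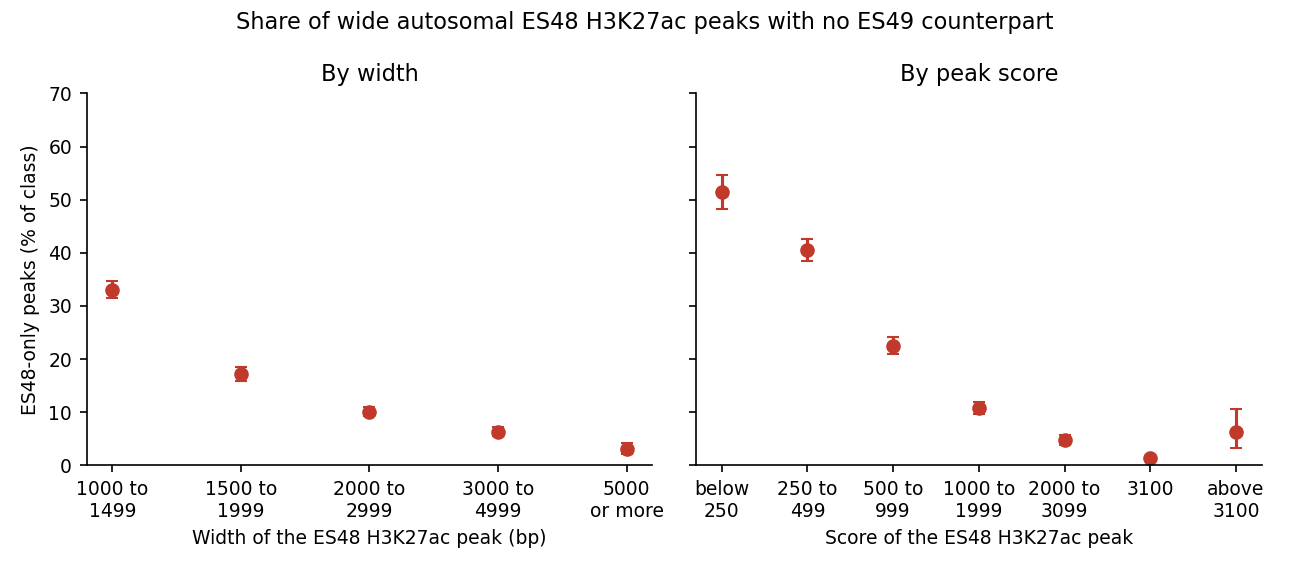
Share (%) of wide autosomal ES48 H3K27ac peaks that overlap neither ES49 histone list, by peak width in bp (left) and by peak score (right). Points are shares and bars are 95% Clopper-Pearson intervals; the share is 33.1% in the narrowest and 3.03% in the widest class, 51.5% below a score of 250, 1.47% at 3100 and 6.19% above 3100.

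Width and score moved together within the ES48-only peaks, with a Spearman rho of 0.84 over the 2559 peaks of this 1 library. This was not particular to them: rho was 0.80 for shared peaks, 0.82 for all wide peaks and 0.94 for the whole ES48 list. With wide peaks split at their median score, the width classes formed no falling series in either part. The lower part held 2306 of the 2559 ES48-only peaks, with shares of 33.9%, 22.5%, 26.7%, 21.8% and 33.3% from the narrowest class to the widest, the last of which had 3 peaks. In the upper part, with 253, the ES48-only share was 3.26% (3 of 92) at 1000 to 1499 bp, 1.45% (13 of 898) at 1500 to 1999 bp and 2.21% (76 of 3432) at 2000 to 2999 bp. At 3000 to 4999 bp it was 4.93% (129 of 2616), and at 5000 bp or more 2.94% (32 of 1087). At the width threshold the scores of the 5 peaks named on each side overlapped. The 5 named inside it were 1000 bp wide. They were not the only members of that width, and ties were broken by position. Their scores were 158.1 to 380.1, such as chr1:16735358-16736357 at 380.1. The 5 widest peaks that missed the threshold were 998 or 999 bp wide. Their scores were 143.2 to 304.4, such as chr5:17951165-17952162 at 304.4. A further 5664 peaks met every condition except width. Their median score was 81.4, and 10 of them scored above the median of the list.

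The upper end held long acetylated blocks. The widest ES48-only peak, chr1:33993506-34005107, ran for 11602 bp with a score of 3100, and the nearest ES49 H3K27ac lay 27.9 kb to its left and 56.6 kb to its right. The second, chr3:127735539-127744781, was 9243 bp wide and had no ES49 H3K27ac for 136.1 kb to the left and 1157 kb to the right. The third, chr4:28743956-28753088, was 9133 bp wide and began 0.449 kb beyond an ES49 peak, with none for 553.5 kb on the other side. The first and second blocks thus had ES49 acetylation at neither edge, and the third had it at its left edge.

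The remaining 7 of the 10 widest were 6684 to 8505 bp wide. The peak at chr17:25887669-25896173 (8505 bp) lay between ES49 peaks at 22.0 and 14.4 kb, and chr3:154228973-154236566 (7594 bp) between ES49 peaks at 19.2 and 22.6 kb. At chr10:95168644-95176140 (7497 bp) and chr8:10920195-10927375 (7181 bp) the block was the only ES48 H3K27ac peak within about 12 kb. On chromosome 12 the peak chr12:15703310-15710084 (6775 bp) had its nearest ES49 H3K27ac 886.0 kb away. The last of the 10, chr7:152287836-152294519 (6684 bp), lay 1.15 kb from ES49 H3K27ac. Of these 10 peaks 2 had ES49 H3K27ac within 10 kb and 3 had none within 100 kb.

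A single region was among both the 10 widest and the 10 highest-scoring ES48-only peaks. It was chr6:138365575-138372508, 6934 bp wide with a score of 3233.1, equal to the highest value of the whole ES48 list. Because scores level off at 3100, where 71 ES48-only peaks are tied, the 10 highest values do not establish these as the strongest peaks. ES49 had no H3K27ac for 661.9 kb to its left and 2000 kb to its right, and its nearest ES49 H3K27me3 lay 2433 kb away. A second ES48-only peak of 4485 bp, chr6:138360866-138365350 with a score of 2310, ended 224 bp before it. The pair and 3 narrower peaks formed 1 acetylated domain of 15.6 kb in which no peak was shared.

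Several of the other highest-scoring ES48-only peaks lay close to ES49 marks. The second, chr8:73011748-73015620 (score 3220), lay 0.24 kb from ES49 H3K27me3 and 9.88 kb from ES49 H3K27ac, in an ES48 domain with 7 shared peaks. The third, chr9:61014285-61018145 (score 3194), was the only ES48 peak of its domain, 6.41 kb from ES49 H3K27me3 and 200.3 kb from ES49 H3K27ac. At chr5:135997490-136002276 (score 3181) ES49 H3K27ac began 3.79 kb away, and at chr4:62414911-62419456 (score 3180) ES49 H3K27me3 lay 7.88 kb away. The remaining 5 of the 10, with scores of 3112 to 3166, included chr4:150784367-150787781 and chr9:118882416-118886225. The narrowest of the 10 was chr7:87079048-87081137, a lone peak of 2090 bp with a score of 3134.

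ES48-only peaks lay at widely differing distances from ES49 acetylation. The median distance to the nearest ES49 H3K27ac peak was 13.8 kb (quartiles 3.53 and 59.4). Within 1 kb of ES49 H3K27ac lay 258 of 2559 (10.1%), and within 10 kb lay 1127 (44.0%). At the other end 442 (17.3%) were at least 100 kb from ES49 H3K27ac and 25 (0.977%) at least 1 Mb. The farthest, chosen after the values were seen, was chr6:77340421-77343197, a 2777 bp peak with a score of 1015 that lay 3305 kb from the nearest ES49 H3K27ac. Overlap was set to 0 by the rule, so these distances describe how the chosen peaks lie.

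When autosomal ES48 H3K27ac peaks were joined over gaps of up to about 12 kb, 2043 of 13353 domains held an ES48-only peak. In 928 of these (45.4%, 43.2 to 47.6) the domain held a shared peak too, so that ES48-only acetylation lay beside acetylation that ES49 had as well. In 1109 (54.3%, 52.1 to 56.5) the whole span was free of ES49 H3K27ac. Of the 2043 domains, 664 (32.5%) were 1 ES48-only peak alone, and the rule fixes their span as free. These 664 are among the 1109, so that count is in part set by the rule. By peak, 1238 ES48-only peaks (48.4%) lay in a domain with a shared peak and 1321 (51.6%) did not. The 1321 include the same 664 lone peaks. An ES48-only peak was the only ES48 peak of its domain in 664 cases (25.9%, 24.3 to 27.7), and a shared peak in 5582 of 13556 (41.2%, 40.3 to 42.0). This difference was not tested.

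**Figure D2:**
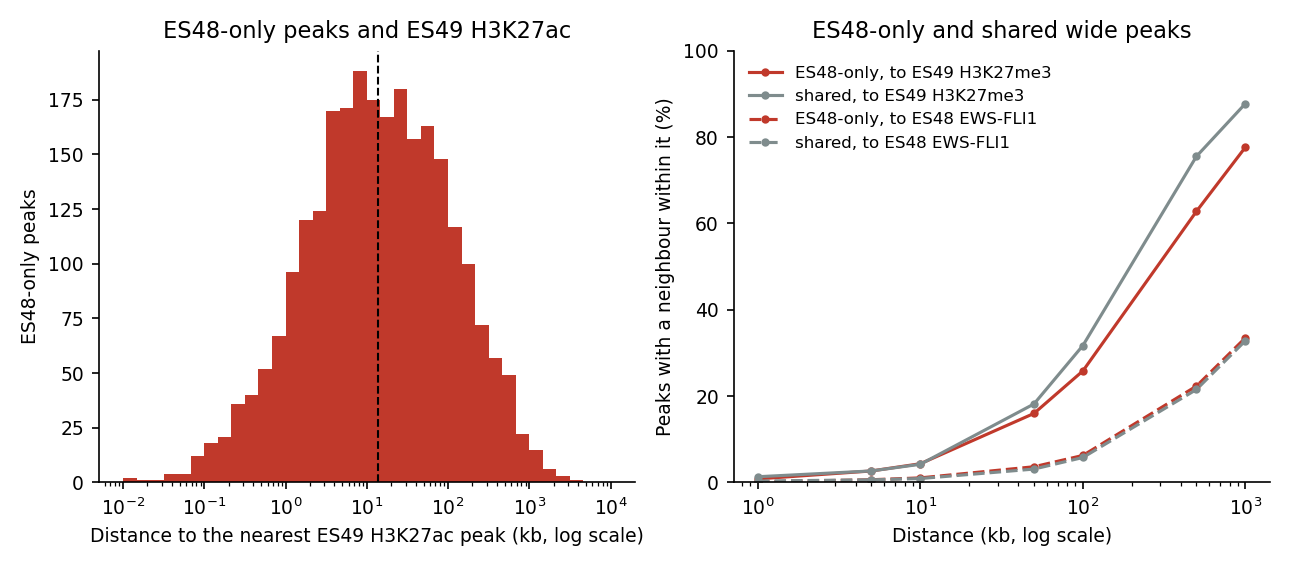
Left, number of ES48-only peaks by distance to the nearest ES49 H3K27ac peak in kb on a log scale, with the median of 13.8 kb as a dashed line. Right, share (%) of ES48-only peaks (red) and of shared wide peaks (grey) that have an ES49 H3K27me3 peak (solid) or an ES48 EWS-FLI1 peak (dashed) within the distance in kb on the log axis; the EWS-FLI1 curves lie close together, and at 1000 kb the H3K27me3 curves reach 77.6% for ES48-only and 87.8% for shared peaks.

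Most ES48-only peaks had no other ES48-only peak close by. Joined among themselves over the same gaps they formed 2116 groups. These were 1769 single peaks (69.1% of the 2559 ES48-only peaks), 281 pairs and 66 groups of 3 or more, which held 228 peaks. In 46 of those 66 groups no ES49 H3K27ac peak lay between the members. Shared and narrower ES48 peaks were left out of this joining, so a single peak here need not be isolated. With all ES48 peaks joined, 664 of the 2559 (25.9%) were the only ES48 peak of their domain, as given above.

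The group with the most covered length was chr5:77785486-77813954, where 7 ES48-only peaks covered 16.4 of 28.5 kb. Its first member, chr5:77785486-77788784, scored 3100, the next 4 scored between 648.4 and 1804, and the last ones scored 344.3 and 232.2. ES49 had no H3K27ac from 45.3 kb before the group to 74.8 kb after it. No peak of the other lists lay between its members either: the nearest ES48 EWS-FLI1 peak was 908.5 kb away and the nearest ES49 H3K27me3 1812 kb.

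The second group, chr4:28743956-28768403, began with the 9133 bp block described above and held 3 more members with scores of 925.8, 1452 and 258.2. It began beside a shared ES48 peak, and its members were spread over the 24.4 kb to the right of that peak, where ES49 had none. The third group, chr6:6810346-6835534, consisted of 4 members of 4963, 2963, 6537 and 1012 bp, with scores of 3100, 1467, 3100 and 156.1. These 4 were the only ES48 H3K27ac peaks of the domain, and ES49 H3K27ac lay 281.6 kb to the left and 70.2 kb to the right.

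The fourth group was the 11602 bp block on chromosome 1 with a neighbour of 1129 bp (score 233.9), chr1:33992219-33993347, 158 bp before it. The fifth, chr3:127728794-127744781, joined peaks of 1155 and 1980 bp (scores 256.6 and 554.9) to the 9243 bp block. Of the 5 groups it alone held an EWS-FLI1 peak. Only the chromosome 4 group lay in a domain with a shared peak.

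**Figure D3:**
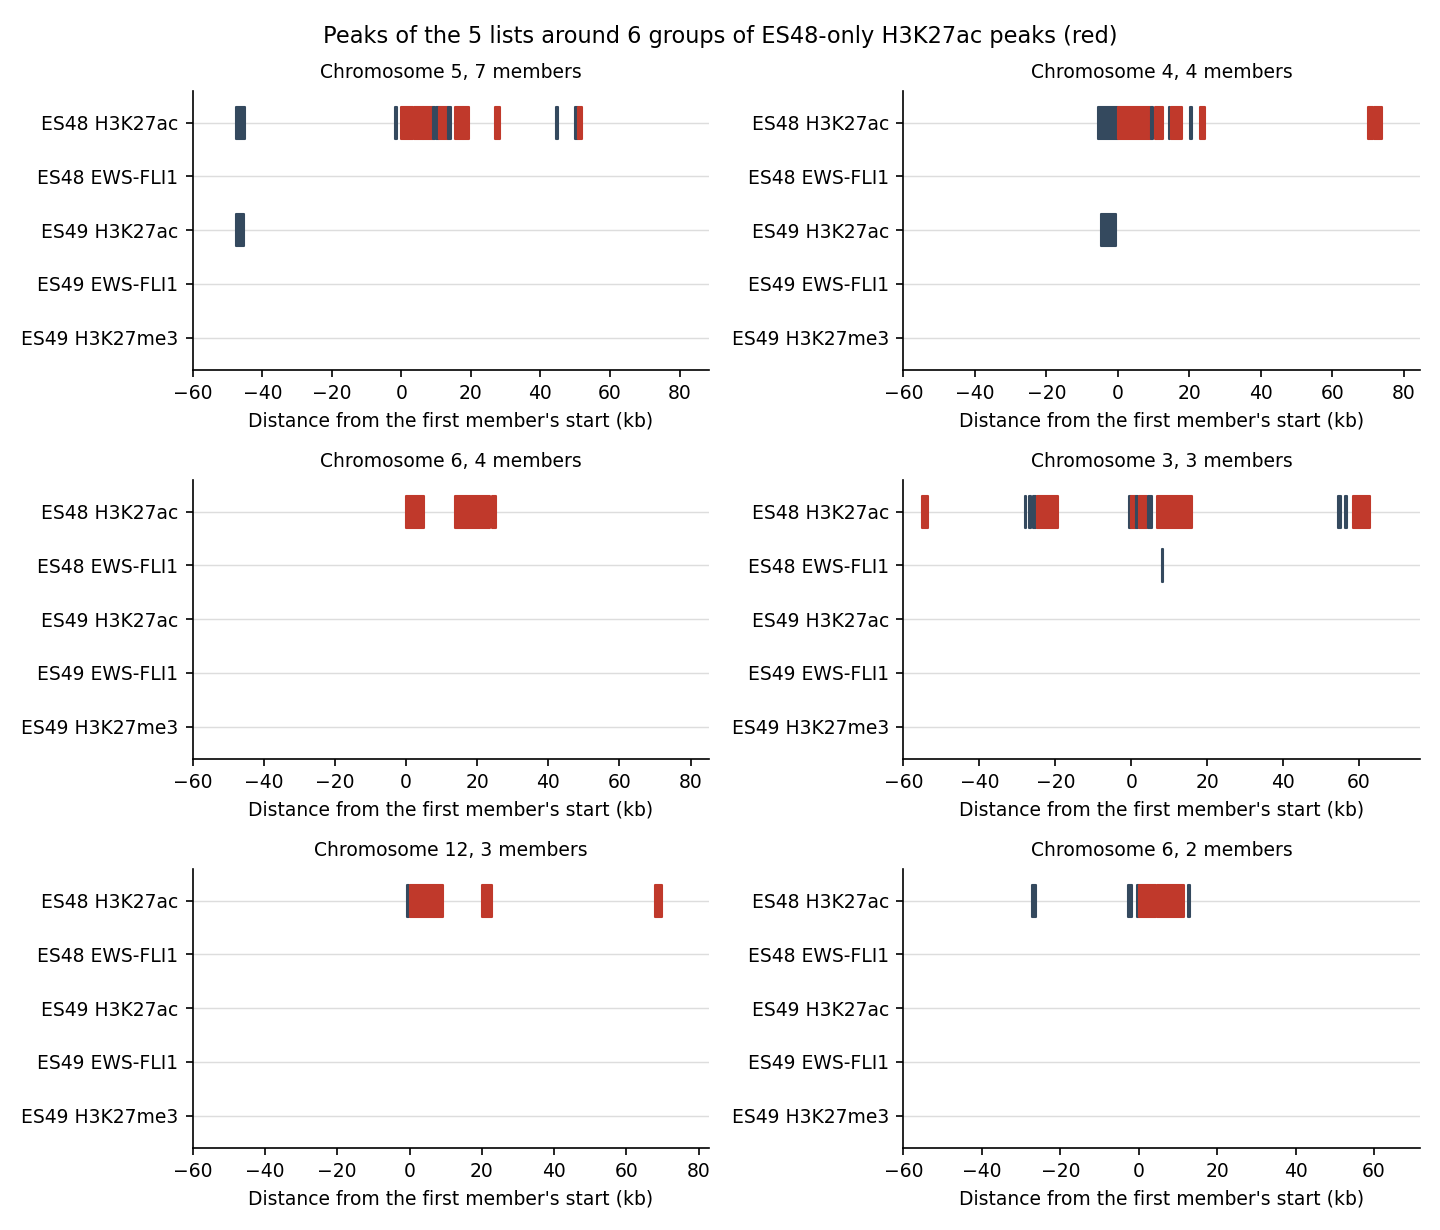
Peaks of the 5 lists around 6 groups of ES48-only H3K27ac peaks, with ES48-only peaks in red and every other peak in dark blue, against the distance in kb from the start of the group's first member. ES49 H3K27ac appears at the left of the chromosome 5 and chromosome 4 groups and nowhere in the other 4 windows, and the single EWS-FLI1 peak is that of ES48 in the chromosome 3 group.

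Several stretches between neighbouring ES49 H3K27ac peaks held many ES48-only peaks. They were looked for after the values were seen. No ES48 peak that lies wholly within such a stretch can be shared, so these counts follow in part from the rule. The 2559 peaks fell into 1799 such stretches, 1337 of which held 1, while 30 stretches with 5 or more held 181 peaks. On chromosome 3 a stretch of 1303 kb, chr3:127599453-128901959, had 22 ES48 H3K27ac peaks, 8 of them ES48-only peaks of at least 1000 bp. The others that lie wholly within it were narrower than 1000 bp, not shared. The 8 included the 9243 bp block and a second peak with a score of 3100, chr3:127703914-127709394 (5481 bp). No ES49 H3K27me3 peak lay in this stretch, so none of the ES49 lists had a peak there.

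The stretch on chromosome 12, chr12:13655868-16596132, was 2940 kb long and held 7 ES48-only peaks with scores of 247.4 to 3100. ES49 had 3 H3K27me3 peaks within it, covering 3.47 kb. Peaks of 6308 bp at chr12:14153435-14159742 and of 6775 bp at chr12:15703310-15710084 both scored 3100. On chromosome 6 the stretch chr6:6528772-6905778 held 8, among them the group of 4 above. Another stretch with 8, chr4:150432606-150912349, held 27 ES49 H3K27me3 peaks covering 18.97 kb. Its ES48-only peaks lay 13.1 to 69.0 kb from H3K27me3, and the highest of them was chr4:150784367-150787781 with a score of 3166.

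ES49 H3K27me3 lay within 10 kb of 111 ES48-only peaks (4.34%, 3.58 to 5.20) and of 571 shared peaks (4.21%, 3.88 to 4.56), against 818 of all 16251 wide peaks (5.03%). The shared count includes 114 peaks that overlap H3K27me3 and the count over all wide peaks 250, which the rule does not allow for ES48-only peaks. The median distance was 291.2 kb for ES48-only peaks and 193.9 kb for shared peaks. In all 312 of 2559 ES48-only peaks were nearer to ES49 H3K27me3 than to ES49 H3K27ac, and 9 had H3K27me3 within 10 kb on both sides. Shared peaks overlap ES49 H3K27ac by definition, so the count of 312 has no counterpart among them. The one with most H3K27me3 around it, picked after the values were seen, was chr2:115890194-115893760, a 3567 bp peak with a score of 2317: ES49 had 10 H3K27me3 peaks within 10 kb of it, the nearest at 0.377 kb, and its nearest H3K27ac at 482.1 kb. H3K27me3 was mapped in ES49 alone, so its level at these places in ES48 is not known.

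EWS-FLI1 was mapped in both lines, and its lists were not used to choose the peaks. Where ES49 H3K27ac covers an EWS-FLI1 site within a wide ES48 peak, however, the rule makes that peak shared. The shares below are therefore not independent of the choice. Both EWS-FLI1 lists are also short on the autosomes, with 410 of 614 ES48 peaks and 335 of 681 ES49 peaks there. That limits how many overlaps there can be. Ranks below are over the whole lists. Direct overlap was rare: 1 of 2559 ES48-only peaks (0.0391%, 0.000989 to 0.218) and 32 of 13556 shared peaks (0.236%, 0.162 to 0.333) overlapped an ES48 EWS-FLI1 peak, against 0.203% of all wide autosomal ES48 H3K27ac peaks. The 1 peak was the 9243 bp block chr3:127735539-127744781. Its EWS-FLI1 peak, chr3:127736803-127737165, began 1264 bp inside it and scored 140.4, rank 147 of the 614 ES48 EWS-FLI1 peaks. ES49 had no EWS-FLI1 peak within 13754 kb and no H3K27ac within 136.1 kb, so at this place binding and acetylation were listed in ES48 and neither was listed in ES49. Distances to the sparse ES49 EWS-FLI1 list were long in general. Over the ES48-only peaks their median was 4983 kb (quartiles 1509 and 10831).

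ES49 EWS-FLI1 also overlapped 1 ES48-only peak (0.0391%, 0.000989 to 0.218), against 54 shared peaks (0.398%, 0.299 to 0.519) and 0.338% of all wide peaks. The rule bears on this difference, since a peak that touches ES49 H3K27ac cannot be ES48-only. The 1 ES48-only peak, chr16:27852322-27854371, was 2050 bp wide with a score of 833.7. The ES49 EWS-FLI1 peak chr16:27852203-27852618 straddled its left edge with a score of 77.5, rank 470 of 681, and ES49 H3K27ac lay 0.493 kb away. Here EWS-FLI1 was listed in the line that lacked an acetylation peak at the place.

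Nearby EWS-FLI1 was counted at 2 distances. Within 1 kb of an ES48 EWS-FLI1 peak lay 3 ES48-only peaks (0.117%, 0.0242 to 0.342) and 45 shared peaks (0.332%, 0.242 to 0.444), against 0.295% of all wide peaks. Within 1 kb of an ES49 EWS-FLI1 peak lay 3 ES48-only peaks (0.117%, 0.0242 to 0.342) and 67 shared peaks (0.494%, 0.383 to 0.627), against 0.431%. Within 10 kb of an ES48 EWS-FLI1 peak lay 27 ES48-only peaks (1.06%, 0.696 to 1.53) and 122 shared peaks (0.900%, 0.748 to 1.07), against 0.917% of all wide peaks. For ES49 EWS-FLI1 the counts were 23 (0.899%, 0.571 to 1.35) and 96 (0.708%, 0.574 to 0.864), against 0.732%. All these intervals cover counting error within 1 library and are not a test between the sets, which the rule itself separates by ES49 H3K27ac. ES48-only peaks were narrower than shared ones, as given above. The part of width in these shares, and the differences themselves, were not tested. The 27 peaks had 24 ES48 EWS-FLI1 peaks near them with a median score of 61.5. The 122 shared peaks had 98 near them, with a median score of 58.0. Both medians lay close to the lowest score of 50.1 in that list.

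Some of these 27 shared 1 EWS-FLI1 peak. The EWS-FLI1 peak chr5:126966677-126966885 (score 98.3) had 3 ES48-only peaks within 10 kb, at 1.64, 4.98 and 5.29 kb. That at chr3:127736803-127737165 (score 140.4) had 3 as well: the 9243 bp block that it overlaps, and peaks at 3.998 and 6.854 kb. That at chr17:13743914-13744179 (score 125.3) had peaks at 4.89 and 6.95 kb, each at nearly the same distance from ES49 EWS-FLI1. The nearest without overlap were chr18:49060747-49064586, a 3840 bp peak with a score of 3100 whose EWS-FLI1 peak lay 0.218 kb away, and chr3:135529905-135533124, with a score of 2725 and EWS-FLI1 at 0.923 kb. Both EWS-FLI1 peaks were weak, with scores of 54.5 and 53.2. These places were picked after the values were seen.

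The autosomes differed in how many of their wide ES48 peaks were ES48-only. The share was highest on chromosome 19 (22.7%, 122 of 537, 19.2 to 26.5), chromosome 14 (22.5%, 120 of 533, 19.04 to 26.3) and chromosome 18 (22.3%, 125 of 561, 18.9 to 26.0). It was lowest on chromosome 11 (10.5%, 155 of 1477, 8.98 to 12.2), chromosome 15 (10.7%, 76 of 711, 8.51 to 13.2) and chromosome 2 (12.2%, 163 of 1333, 10.5 to 14.1). These chromosomes were picked as the extremes of a share that the rule itself sets, so the values are a description. Chromosome 5 held the most ES48-only peaks by number, 237 of 1259 wide peaks (18.8%, 16.7 to 21.1). That was 9.26% of all ES48-only peaks, beside 7.75% of all wide peaks. It also held the most groups of 3 or more, 7, and chromosomes 8, 14 and 19 held 6 each.

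The share was higher where the ES49 list was short beside the ES48 list. Chromosome 19 had 817 ES48 and 672 ES49 H3K27ac peaks, a ratio of ES49 to ES48 of 0.823. Chromosome 11 had 2184 ES48 and 3209 ES49 peaks, a ratio of 1.47. Over the 19 autosomes the Spearman rho between this ratio and the ES48-only share was -0.87. The share depends on the ES49 list and so does the ratio, so they are not independent. On chromosome 19 the mirror share, ES49 peaks of at least 1000 bp that overlap no ES48 H3K27ac, was 2.09% (7 of 335), and on chromosome 11 it was 10.3% (144 of 1400). The mirror share is not a like-for-like reverse of the ES48-only share. Over the whole H3K27ac lists the median width was 838 bp in ES49 and 1475 bp in ES48. The same cut at 1000 bp thus keeps unlike parts of the lists. It also takes no account of H3K27me3, which was not mapped in ES48. Over the 19 autosomes the rho between the ES48-only share and the mirror share was weaker, at -0.45, and chromosome 13 had a high value of both (18.0% and 11.0%). Read depth and DNA copies per chromosome were not measured here, and their part in these shares was not tested.

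**Figure D4:**
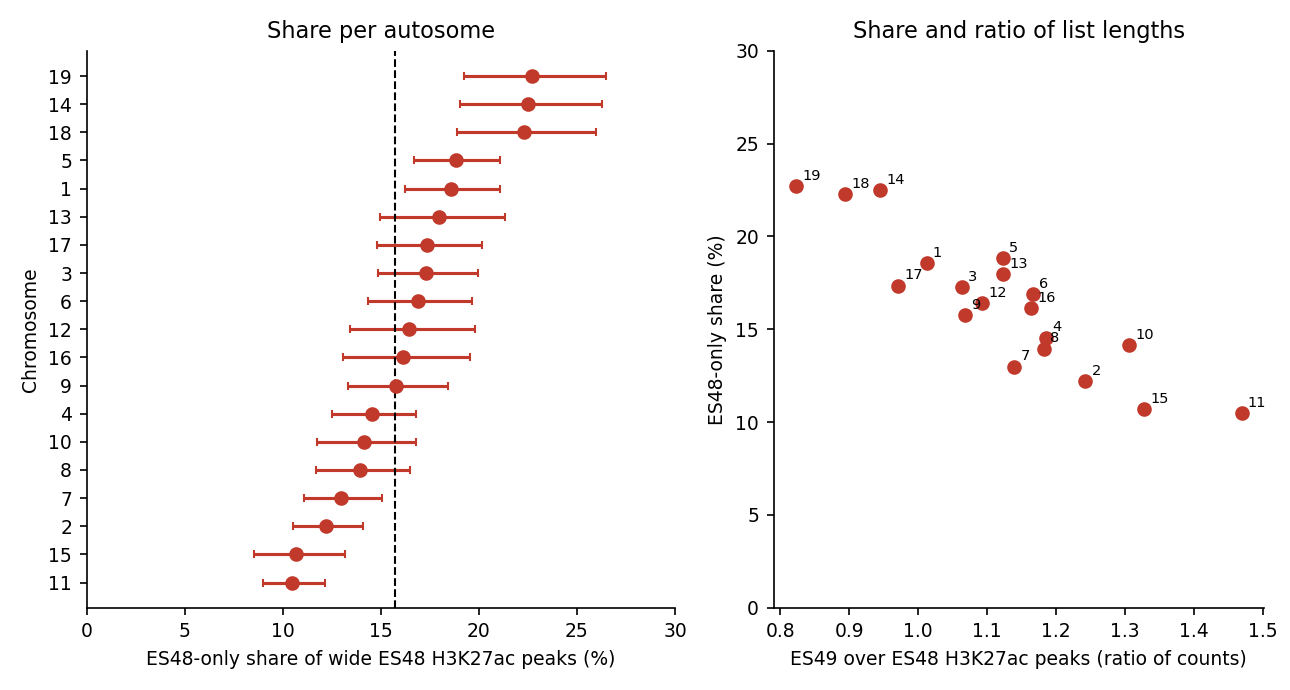
Left, share (%) of wide ES48 H3K27ac peaks that are ES48-only on each autosome, with 95% Clopper-Pearson intervals and the share over all autosomes, 15.7%, as a dashed line. Right, the same share against the number of ES49 H3K27ac peaks divided by the number of ES48 H3K27ac peaks on the chromosome; chromosomes 19, 18 and 14 lie at the upper left and chromosomes 11 and 15 at the lower right.

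The share was also taken over windows. They hold fewer peaks than chromosomes, so a wider range is to be expected from counting alone. Among 138 windows of 10 Mb with at least 50 wide ES48 peaks, set after the values were seen, it was highest at chr8:10000001-20000000, with 23 ES48-only peaks of 56 (41.1%, 28.1 to 55.0), and at chr17:10000001-20000000, with 22 of 57 (38.6%, 26.0 to 52.4). On chromosome 19 the window 20000001 to 30000000 had 21 of 55 (38.2%, 25.4 to 52.3). The lowest was chr5:20000001-30000000, with 3 of 61 (4.92%, 1.03 to 13.7). Another window of the same chromosome, chr5:70000001-80000000, had 25 of 72 (34.7%, 23.9 to 46.9), 7 of which belong to the largest group described above.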

How the data were processed

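Of the 6 samples, 5 have a peak list that was used. The submitters' processing notes name mm9 as the build, with Bowtie 1.1.1 and SAMtools 1.2. The deposited lists give chromosome, start, end, name and a score per peak, which is the authors' peak caller's own value. The peak names begin with MACS. For the caller's version, control, threshold and filters, the sources used here give nothing. The scores were compared only within a list. The lists hold no read counts, so depth is unknown.

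Starts were turned to 1-based positions. Overlap meant at least 1 bp, and distances ran from edge to edge. Joining used gaps under 12.5 kb. Shares have 95% Clopper-Pearson intervals, which cover counting error only. With 1 library a group no test was run. The regions named were the 10 widest, the 10 highest-scoring, the 5 on each side of the width threshold, the 5 groups with the most covered length, the 3 chromosomes with the highest and the 3 with the lowest share, and overlaps with EWS-FLI1; others are marked in the text. The members and these rules were chosen with earlier results of these data known. Genes, marker lists and motifs had been planned, but without mm9 genes and sequence they were left out, and GRCm38 positions were not used in their place. Overlap, distance and joining were checked on simulated peaks. The tools were bedtools 2.31.1, Python 3.11.15, matplotlib 3.10.9, pandas 2.3.3, numpy 2.4.6 and scipy 1.17.1.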

Additional observations from a re-analysis of the deposited data

How the results depend on the processing

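The number of ES48-only peaks, 2559, depended on the thresholds of the lists. It was 5958 with a minimum width of 500 bp, 727 with 2000 bp, 1030 with the upper 50% of ES48 H3K27ac peaks by score, and 4489 when only the upper 50% of each ES49 histone list by score could overlap them. It stayed within 1.5 times, between 2282 and 2620, with ES49 peaks within 1 kb counted as overlapping, with an overlap of 50% of the shorter peak, and without the 1% widest and 1% highest ES48 peaks. The count of ES48-only peaks that overlap ES48 EWS-FLI1 was 1; it was 3 at 500 bp, 4 with the upper 50% of the ES49 lists, and 0 without the 1% widest and highest peaks, since the block on chromosome 3 was among those left out. Counting EWS-FLI1 within 1 kb gave 3, and within 10 kb gave 27. Groups of 3 or more numbered 66, and 38 with joining at 5 kb and 116 at 25 kb. No paired analysis was possible because each group has 1 sample. Depth is unknown, so a place without an ES49 peak may hold signal under the calling threshold.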
